A study of Mus musculus with 30 samples.

Results

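Heat shock chaperones are the proteins that hold, fold and refold other proteins, and 10 of their genes were followed here in mouse blood stem and progenitor cells. They were the rows of 2 RNA count tables whose gene name was Hspa1a, Hspa1b, Hsph1, Dnajb1, Hsp90aa1, Hspa8, Hsp90ab1, Dnaja1, Hspd1 or Hspe1, and each table held all 10 among 55471 rows. The first 5 were taken as stress-inducible, meaning low at rest and raised by heat or other protein damage, and the last 5 as constitutive, meaning abundant in unstressed cells. These classes were not set by the levels measured here, which did not follow them for every gene. Rows were matched by gene name.

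The study treated C57BL/6 mice with MTP10-HDL, a high-density lipoprotein nanobiologic loaded with muramyl tripeptide, a bacterial cell wall fragment that trains innate immune cells, or with phosphate-buffered saline (PBS). Multipotent progenitors (MPPs) gave 3 MTP10-HDL and 2 PBS libraries, and hematopoietic stem cells (HSCs) gave 6 MTP10-HDL and 7 PBS libraries. Every library pooled the sorted cells of 4 mice, so a p-value measures the spread between pools and not between single mice. The MPP labels give 3 injections over 5 days, marrow of femurs and tibias taken the day after the last, depletion of lineage-marked cells and a flow sort, and the HSC labels used here give the agent without a schedule. Both groups of each table share strain, tissue, pooling and library kit. Libraries are named by group and by the number in their column name.

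In the cell, Hsp70 proteins bind exposed stretches of unfolded proteins, J proteins bring them their clients, nucleotide exchange factors release the clients, and Hsp90 finishes many signalling proteins. Inside mitochondria a barrel of Hsp60 with its Hsp10 lid folds imported proteins. Heat shock factor 1 (HSF1) drives the inducible genes through repeated short elements in their promoters, and blood stem cells are known to depend on tight control of protein synthesis and folding.

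No chaperone passed the test in either cell type. In MPPs the 5 constitutive chaperones all averaged higher in MTP10-HDL than in PBS libraries, by 0.31 to 0.85 on the log2 scale, and every MTP10-HDL library stood above both PBS libraries for each of them, as for 12.0% of all genes tested. The inducible Hsp70 genes Hspa1a and Hspa1b were the opposite, with every MTP10-HDL library below both PBS libraries, as for 12.3% of all genes, and log2 fold changes of −1.48 and −1.33. In HSCs the log2 fold changes of the 8 chaperones tested lay between −0.34 and 0.34, and the groups overlapped for all 10. With edgeR's quasi-likelihood test and Benjamini-Hochberg adjustment over all genes, 0 of 10 chaperones tested in MPPs were called at an adjusted p under 0.05, where 0 of 15449 genes were called (0.0%). In HSCs 0 of 8 were called, where 0 of 16631 genes were called (0.0%). DESeq2 called 181 and 85 genes, in MPPs and HSCs, and no chaperone. Hspa1a and Hspa1b were under the count filter in HSCs.

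**Figure D1:**
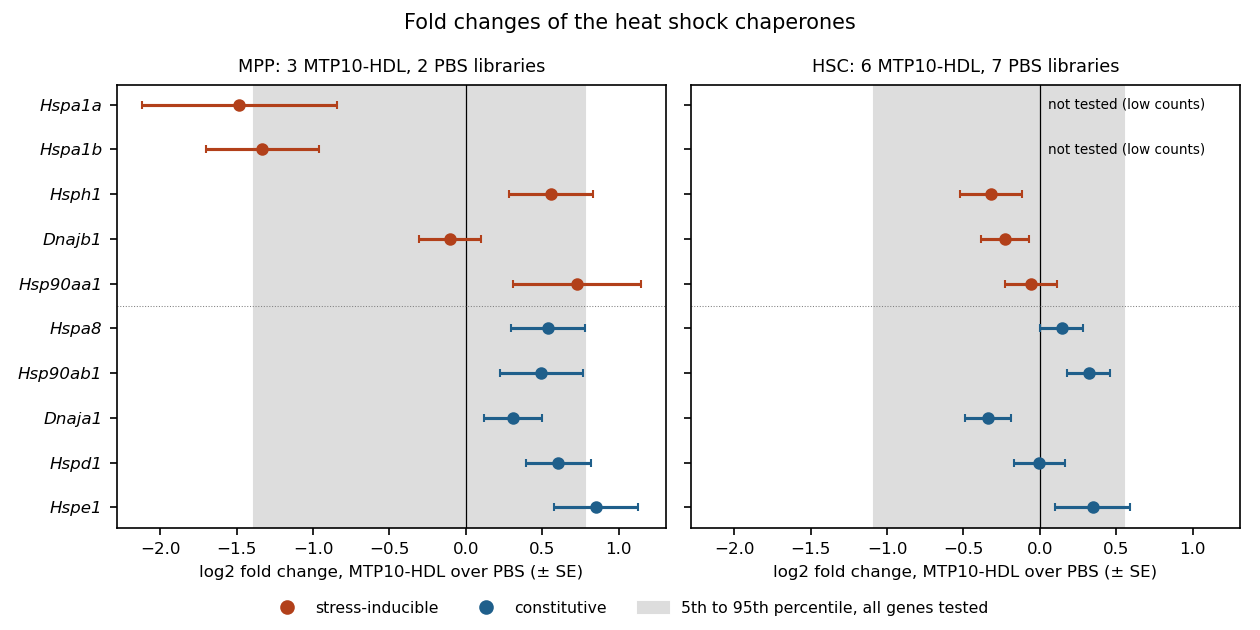
Log2 fold change of MTP10-HDL over PBS (horizontal axis, points with SE) for each chaperone (rows) in MPPs and HSCs, with the inducible genes above the dotted line and the constitutive genes below it. Grey bands span the 5th to 95th percentile of all genes tested; in MPPs the 5 constitutive genes lie between 0.31 and 0.85, and Hspa1a and Hspa1b at −1.48 and −1.33.

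Depth, makeup and cell markers differed between libraries. Total counts were 17555267 to 32769369 in MTP10-HDL and 11252479 to 14691375 in PBS libraries of MPPs, so each treated library was the deeper, and 5467455 to 7641976 against 4064155 to 7879858 in HSCs. Ribosomal RNA took 0.508 to 0.915% of counts in MTP10-HDL MPP libraries and 1.26 to 1.47% in PBS ones, and immunoglobulin genes took 2.76 to 4.26% and 6.20 to 12.5%. HSC libraries differed too, with immunoglobulin genes at 0.374 to 4.90% in MTP10-HDL and 0.271 to 19.8% in PBS libraries. Mitochondrial ribosomal RNA took 12.4 to 27.9% and 20.4 to 27.6% of HSC counts. With ribosomal, immunoglobulin and mitochondrial genes removed, the median log2 fold change in MPPs was 0.51 for the constitutive and −0.12 for the inducible genes. The same removal gave 0.14 and −0.23 in HSCs. All 11 stem and progenitor markers were measured in both tables. In MPPs, led by Cd34, 8 of 11 were below 0 (median log2 fold change −0.48, none called, lowest edgeR adjusted p = 0.3196), with summed levels of 3102 to 3184 counts scaled to library size (CPM) in MTP10-HDL and 3136 to 3373 CPM in PBS libraries. In HSCs, led by Hlf, 5 of 11 were below 0, at 1593 to 2596 and 1638 to 3013 CPM. Of the erythroblast markers, led by Car2, 10 of 12 tested were below 0 in MPPs, with summed levels of 534 to 607 CPM in MTP10-HDL and 669 to 961 CPM in PBS libraries. In HSCs 12 of 12 were below 0, at 427 to 806 and 744 to 1372 CPM. At an unadjusted p under 0.05, 7 erythroblast markers were lower in MPPs and 9 in HSCs, where 4.06% and 4.47% of all genes were, and 0 were higher. None was called (lowest edgeR adjusted p = 0.09284 in MPPs and 0.19 in HSCs). Of the stem and progenitor markers in MPPs, 4 were lower and 1 higher at that mark. B cell and plasma cell markers, led by Jchain, summed to 1455 to 3579 CPM in MTP10-HDL and 3516 to 6817 CPM in PBS MPP libraries (5 of 10 below 0), and to 73.1 to 923 and 98.1 to 5540 CPM in HSCs (9 of 9 below 0). Neutrophil markers, led by S100a9 in MPPs and Ngp in HSCs, were above 0 for 7 of 11 genes in MPPs and 11 of 11 in HSCs. In MPPs they summed to 241, 282 and 1657 CPM in MTP10-HDL libraries 1, 2 and 3, against 616 to 764 CPM in PBS libraries. MTP10-HDL libraries 1 and 2 thus lay below both PBS libraries, and library 3 above them. In HSCs they summed to 600 to 5578 CPM in MTP10-HDL and 95.9 to 3759 CPM in PBS libraries. No marker of these lists was at 0 throughout a table, the part of these cells in the chaperone values was not tested, and in bulk libraries fewer cells of a type and less RNA per cell cannot be told apart.

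Hspa1a and Hspa1b encode nearly the same inducible Hsp70 protein from neighbouring genes on chromosome 17. Their 250 bases before the transcript start are shown because they are nearly one sequence. The windows come from RefSeq on GRCm38.p6 and lie on the minus strand, at chr17:34972157-34972406 for Hspa1a and chr17:34959239-34959488 for Hspa1b. Capitals mark the match to the heat shock element core, searched as GAANNTTC or TTCNNGAA on both strands.
Hspa1a: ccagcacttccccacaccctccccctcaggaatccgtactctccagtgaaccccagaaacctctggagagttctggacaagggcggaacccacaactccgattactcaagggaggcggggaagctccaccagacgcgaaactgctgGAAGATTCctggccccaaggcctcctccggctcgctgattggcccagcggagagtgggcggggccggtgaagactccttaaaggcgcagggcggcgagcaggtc
Hspa1b: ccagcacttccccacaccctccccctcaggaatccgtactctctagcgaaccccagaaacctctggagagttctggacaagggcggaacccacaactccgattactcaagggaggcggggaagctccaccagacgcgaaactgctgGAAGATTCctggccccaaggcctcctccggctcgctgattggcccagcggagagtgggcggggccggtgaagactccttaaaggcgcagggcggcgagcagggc
The windows share 247 of 250 bases, and in both the core lies from base −104 to base −97 before the start. A core match occurs before 14.5% of the 27025 genes with a window, so a match here is a description of the letters only. How reads matching both genes were counted is not given in the sources used here, so the split between Hspa1a and Hspa1b is uncertain.

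In MPPs Hspa1b stood at 10.9, 9.62 and 21.2 CPM in MTP10-HDL libraries 1, 2 and 3, against 29.5 and 40.3 CPM in PBS libraries 2 and 3. Hspa1a stood at 2.09, 2.77 and 9.30 CPM in the MTP10-HDL libraries, against 10.2 and 15.9 CPM in the PBS libraries. For both genes the groups did not overlap, MTP10-HDL library 3 came nearest to the PBS libraries, and PBS library 3 was the highest. Hspa1b averaged 13.9 ± 6.34 CPM in MTP10-HDL and 34.9 ± 7.64 CPM in PBS libraries (SD, n = 3 and 2), a log2 fold change of −1.33 (SE 0.37, edgeR adjusted p = 0.559). Hspa1a had a log2 fold change of −1.48 (SE 0.64, edgeR adjusted p = 0.7981). Without a filter on low counts Hspa1b was called, at −1.31 with an edgeR adjusted p of 0.002223, the one alternative in which a chaperone passed. That fit called 345 of 26208 genes, 296 of them lower, so the call was not particular to Hspa1b.

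Immediate early genes, which answer stress and handling within minutes, were also lower on average in MTP10-HDL libraries of MPPs. Their summed level was 769, 1539 and 778 CPM in MTP10-HDL libraries 1, 2 and 3, against 833 and 4205 CPM in PBS libraries 2 and 3. PBS library 3 was highest for these and for the pair. Without PBS library 3 the log2 fold changes were −1.09 for Hspa1b and −1.12 for Hspa1a. Without MTP10-HDL library 3 they were −1.76 and −2.42.

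In HSCs the pair was close to absent. Hspa1a had 0 to 11 reads per MTP10-HDL library and 0 to 26 per PBS library, and Hspa1b had 0 to 3 and 0 to 5. Hspa1a ranged from 0 to 1.78 CPM with a median of 0.300 CPM in MTP10-HDL libraries, and from 0 to 4.22 CPM with a median of 1.05 CPM in PBS libraries. An exact two-sided permutation test over the 1716 arrangements of the libraries gave p = 0.124 for Hspa1a and p = 0.416 for Hspa1b. No difference was detected for either gene in HSCs at these low counts.

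**Figure D2:**
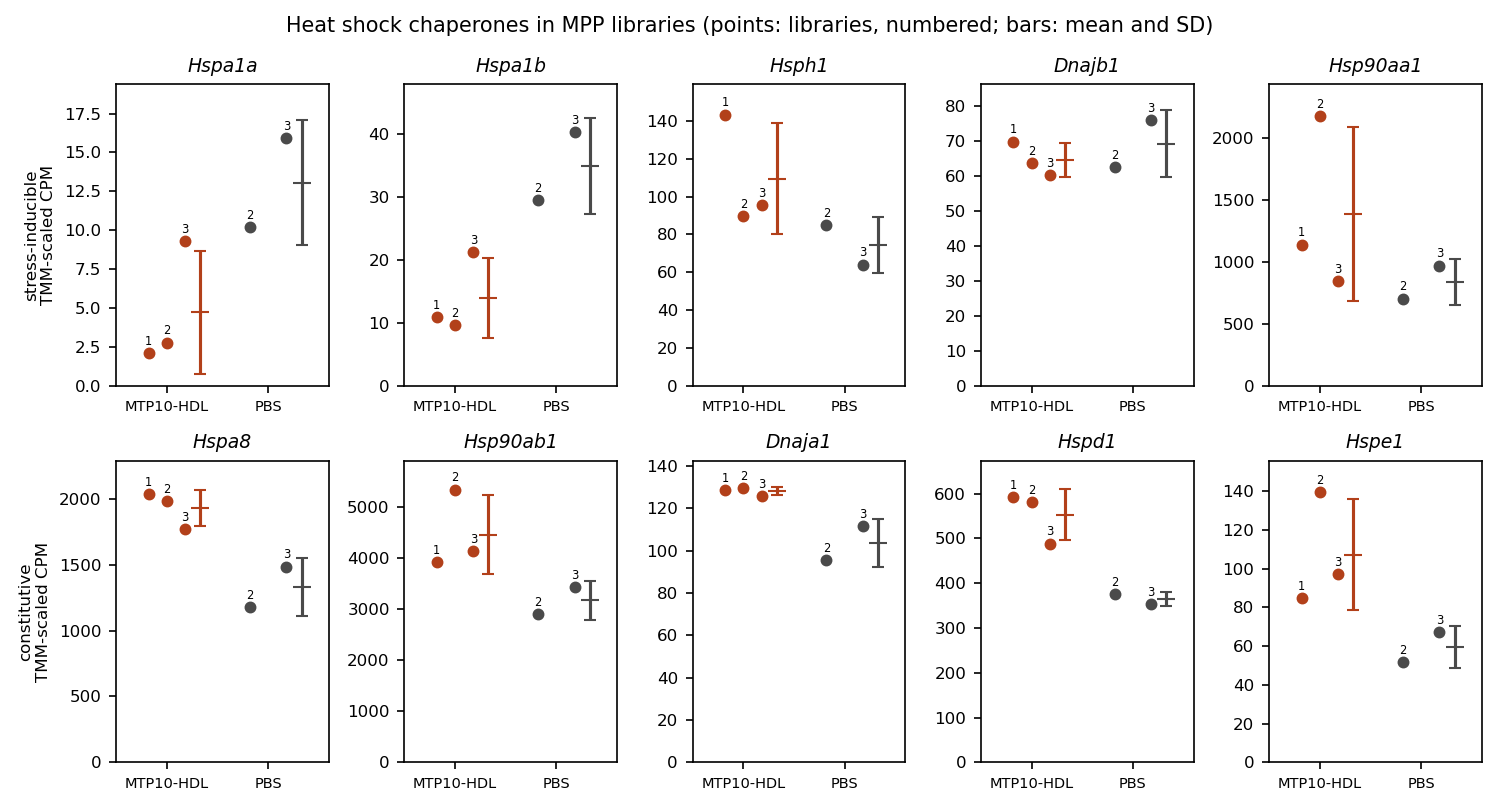
TMM-scaled CPM (vertical axis) of each chaperone in the MPP libraries, with MTP10-HDL left and PBS right; numbered points are libraries, and bars give mean and SD. Hspa1a and Hspa1b are lower in the 3 MTP10-HDL libraries than in the 2 PBS libraries, and the lower row of constitutive genes shows the reverse.

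Hspa8 encodes Hsc70, the constitutive Hsp70 that folds new proteins and strips clathrin from vesicles. In MPPs it stood at 2035, 1981 and 1771 CPM in MTP10-HDL libraries 1, 2 and 3, against 1176 and 1484 CPM in PBS libraries 2 and 3. The groups did not overlap, and the log2 fold change was 0.54 (SE 0.24, edgeR adjusted p = 0.8058). In HSCs it ranged from 203 to 257 CPM with a median of 228 CPM in MTP10-HDL libraries, and from 146 to 298 CPM with a median of 200 CPM in PBS libraries. All 6 MTP10-HDL libraries lay above the PBS median, yet PBS library 4 was higher than all of them, and the log2 fold change of 0.14 (SE 0.14, edgeR adjusted p = 0.7688) did not pass.

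Hsph1 encodes Hsp110, an inducible nucleotide exchange factor that frees clients from Hsp70. Its promoter window is shown because it holds the other form of the core, TTCNNGAA, where those of Hspa1a and Hspa1b hold GAANNTTC. The window, before one of its annotated transcript starts, lies at chr5:149636337-149636586 on the minus strand of GRCm38.p6 (RefSeq), with the core match, at −33 to −26 from the start, in capitals.
Hsph1: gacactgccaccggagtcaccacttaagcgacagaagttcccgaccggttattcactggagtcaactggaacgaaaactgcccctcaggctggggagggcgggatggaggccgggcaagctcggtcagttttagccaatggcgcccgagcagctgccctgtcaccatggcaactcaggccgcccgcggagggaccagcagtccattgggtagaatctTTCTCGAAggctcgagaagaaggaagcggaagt
In MPPs Hsph1 stood at 143, 89.8 and 95.3 CPM in MTP10-HDL libraries 1, 2 and 3, against 84.9 and 64.0 CPM in PBS libraries 2 and 3. The groups did not overlap, though MTP10-HDL library 2 came close to PBS library 2, and the log2 fold change was 0.56 (SE 0.27, edgeR adjusted p = 0.819), or 0.31 without MTP10-HDL library 1 and 0.37 without PBS library 3. In HSCs it ranged from 82.7 to 156 CPM with a median of 109 CPM in MTP10-HDL libraries, and from 95.3 to 222 CPM with a median of 117 CPM in PBS libraries. The groups overlapped widely, PBS library 7 was the highest, and the log2 fold change was −0.32 (SE 0.20, edgeR adjusted p = 0.6526).

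Dnajb1 encodes Hsp40, the inducible J protein that hands clients to Hsp70. In MPPs it stood at 69.7, 63.5 and 60.1 CPM in MTP10-HDL libraries 1, 2 and 3, against 62.5 and 75.9 CPM in PBS libraries 2 and 3, and the groups overlapped (log2 fold change −0.10, SE 0.20, edgeR adjusted p = 0.9647). Without PBS library 3 the sign turned, to 0.05. In HSCs Dnajb1 ranged from 45.7 to 85.5 CPM with a median of 66.2 CPM in MTP10-HDL libraries, and from 61.9 to 91.6 CPM with a median of 78.4 CPM in PBS libraries. Of the MTP10-HDL libraries, 5 of 6 lay under the PBS median, and the log2 fold change was −0.23 (SE 0.16, edgeR adjusted p = 0.6729). No core of the heat shock element was found in its 250-base windows.

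Dnaja1 encodes a constitutive J protein of the cytosol. In MPPs it stood at 129, 130 and 126 CPM in MTP10-HDL libraries 1, 2 and 3, against 95.5 and 112 CPM in PBS libraries 2 and 3, without overlap (log2 fold change 0.31, SE 0.19, edgeR adjusted p = 0.8671, and 0.19 without PBS library 2). In HSCs it ranged from 55.2 to 97.7 CPM with a median of 91.1 CPM in MTP10-HDL libraries, and from 84.1 to 135 CPM with a median of 104 CPM in PBS libraries. All 6 MTP10-HDL libraries lay under the PBS median, with MTP10-HDL library 6 well under the other 5 and PBS library 6 inside their range. The HSC log2 fold change was −0.34 (SE 0.15, edgeR adjusted p = 0.5497). A core of the heat shock element lay at −124 to −117 before 1 of its annotated starts, as before 14.5% of genes with a window. Core matches were thus not confined to the inducible genes.

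Hsp90aa1 encodes the inducible cytosolic Hsp90. In MPPs it stood at 1139, 2172 and 843 CPM in MTP10-HDL libraries 1, 2 and 3, against 703 and 970 CPM in PBS libraries 2 and 3. The groups overlapped, and MTP10-HDL library 2 held more than any other library. The log2 fold change was 0.73 (SE 0.42, edgeR adjusted p = 0.8536), and 0.24 without MTP10-HDL library 2. In HSCs it ranged from 85.6 to 163 CPM with a median of 106 CPM in MTP10-HDL libraries, and from 80.9 to 144 CPM with a median of 117 CPM in PBS libraries, with a log2 fold change of −0.06 (SE 0.17, edgeR adjusted p = 0.919). MTP10-HDL library 4 was the highest of the HSC libraries, and the other 5 overlapped the PBS group.

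Hsp90ab1 encodes the constitutive cytosolic Hsp90. In MPPs it stood at 3925, 5346 and 4137 CPM in MTP10-HDL libraries 1, 2 and 3, against 2912 and 3440 CPM in PBS libraries 2 and 3, without overlap (log2 fold change 0.49, SE 0.27, edgeR adjusted p = 0.8445). In HSCs it ranged from 1611 to 2754 CPM with a median of 2252 CPM in MTP10-HDL libraries, and from 1533 to 2187 CPM with a median of 1750 CPM in PBS libraries. Of the MTP10-HDL libraries, 5 of 6 lay above the PBS median, and MTP10-HDL library 1 lay below it. The HSC log2 fold change was 0.32 (SE 0.14, edgeR adjusted p = 0.5423).

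**Figure D3:**
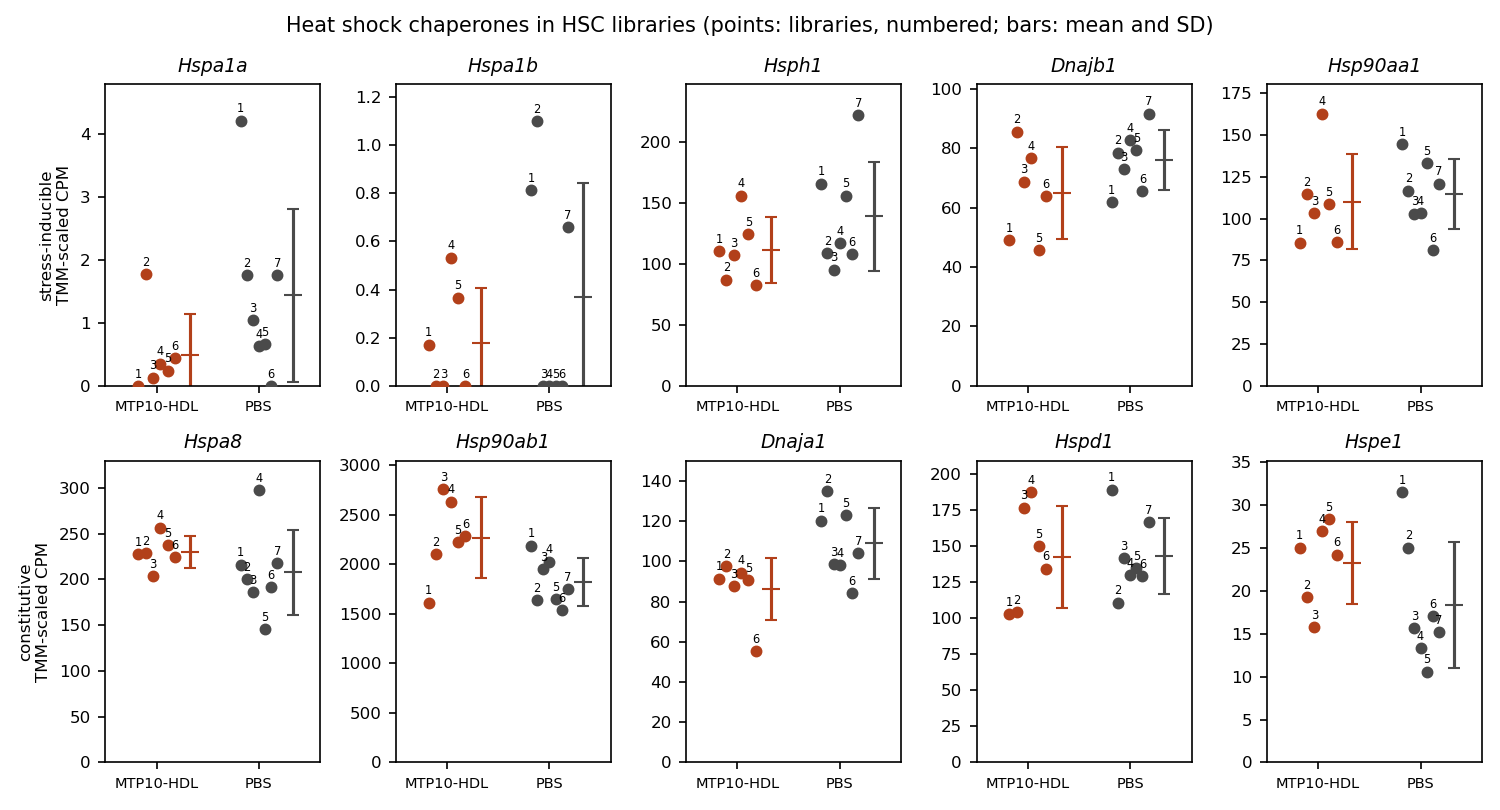
TMM-scaled CPM (vertical axis) of each chaperone in the HSC libraries, with MTP10-HDL left and PBS right; numbered points are libraries, and bars give mean and SD, ending at 0 where they would pass it. The groups overlap in all 10 panels, and Hspa1a and Hspa1b stay under 5 CPM.

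The HSC libraries fell into 3 sets by detected genes and ribosomal RNA share, which the labels do not explain. One set of 4 libraries (MTP10-HDL 2 and 3, PBS 1 and 4) had 24233 to 27528 detected genes, a second set of 4 (MTP10-HDL 1 and 4, PBS 2 and 3) had a ribosomal RNA share of 0.813 to 1.26%, and the other 5 (MTP10-HDL 5 and 6, PBS 5, 6 and 7) had neither. Within these sets, in that order, the log2 difference of Hsp90ab1 was 0.19, 0.21 and 0.46, and that of Dnaja1 was −0.23, −0.31 and −0.53. Only these 2 of the 8 tested chaperones kept one sign in all 3 sets. The share of all genes that did so was not computed. These 2 also had the smallest unadjusted p of the 8 in the same libraries, so their signs are not separate support. Hspe1 was −0.23, 0.39 and 0.89, and Hsph1 was −0.53, 0.37 and −0.61.

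Hspd1 encodes Hsp60, the barrel of the mitochondrial chaperonin, and Hspe1 encodes Hsp10, its lid. The genes lie head to head on chromosome 1, and their annotated spans overlap by 96 bases. The 250 bases before Hspe1, at chr1:55087898-55088147 on the plus strand of GRCm38.p6 (RefSeq), are shown because 215 of them also lie before a start of Hspd1 on the other strand. Capitals mark a run of 3 overlapping core matches, from −89 to −72 of the Hspe1 start.
Hspe1: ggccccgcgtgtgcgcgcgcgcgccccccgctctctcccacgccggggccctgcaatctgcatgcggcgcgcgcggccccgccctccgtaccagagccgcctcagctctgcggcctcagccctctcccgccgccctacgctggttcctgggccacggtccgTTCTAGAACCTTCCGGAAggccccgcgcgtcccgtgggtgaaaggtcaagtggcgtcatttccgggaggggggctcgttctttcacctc
The run also holds 2 overlapping matches to the longer element, GAANNTTCNNGAA or TTCNNGAANNTTC, which occurs before 0.514% of the 27025 genes. Counting by strand is not given in the sources used here, so reads from the overlap could have gone to either gene.

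In MPPs Hspd1 stood at 592, 580 and 488 CPM in MTP10-HDL libraries 1, 2 and 3, against 375 and 354 CPM in PBS libraries 2 and 3. Hspe1 stood at 84.8, 139 and 97.0 CPM in the MTP10-HDL libraries, against 51.8 and 67.2 CPM in the PBS libraries. Neither gene overlapped between the groups, and the PBS libraries were close to each other for Hspd1. Hspd1 averaged 553 ± 56.6 CPM in MTP10-HDL and 364 ± 15.2 CPM in PBS libraries (SD, n = 3 and 2), a log2 fold change of 0.60 (SE 0.21, edgeR adjusted p = 0.7264). Hspe1 had a log2 fold change of 0.85 (SE 0.28, edgeR adjusted p = 0.6717).

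In HSCs Hspd1 ranged from 103 to 188 CPM with a median of 142 CPM in MTP10-HDL libraries, and from 111 to 189 CPM with a median of 135 CPM in PBS libraries. The ranges nearly coincided, and the log2 fold change of −0.01 (SE 0.17, edgeR adjusted p = 0.9961) changed sign under several alternatives. Hspe1 ranged from 15.8 to 28.4 CPM with a median of 24.6 CPM in MTP10-HDL libraries, and from 10.6 to 31.5 CPM with a median of 15.7 CPM in PBS libraries. All 6 MTP10-HDL libraries lay above the PBS median, while PBS library 1 was the highest of all 13 (log2 fold change 0.34, SE 0.25, edgeR adjusted p = 0.6817). Hspe1 has many processed copies, and 7 pseudogene rows held reads equal to 20.0% of its own in MTP10-HDL and 36.7% in PBS HSC libraries, against 4.73% and 6.38% in MPPs. Its HSC values are uncertain to that extent, and the 5 pseudogene rows of Hspd1 held 2.30% or less. For Hspe1 these were 186 reads beside 932 in MTP10-HDL and 267 beside 727 in PBS HSC libraries. Adding them to Hspe1 would narrow its difference between the pooled groups, and no such fit was run.

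Counted over all 10 genes, 6 in MPPs (Hsph1 and the 5 constitutive genes) were higher in every MTP10-HDL than in every PBS library, where 12.0% of the 15449 genes tested were so. Hspa1a and Hspa1b were lower in every MTP10-HDL library, where 12.3% of genes were so. With 3 against 2 libraries, the groups of 24.3% of all genes did not overlap in one direction or the other. In HSCs 0 of 8 tested chaperones had groups that did not overlap, where 0.343% of 16631 genes had. The median log2 fold change in MPPs was 0.54 for the constitutive and −0.10 for the inducible genes, beside 0.02 for all genes. The sign of the inducible median was not stable, at 0.17 for genes of at least 10 CPM, 0.23 with Hspa1a and Hspa1b summed and 0.05 without PBS library 3. In HSCs the medians were 0.14 for the constitutive and −0.23 for the inducible genes, beside −0.02 for all genes. The constitutive one was 0.25 without PBS library 4 and 0.07 without PBS library 5, and the inducible one was −0.12 without MTP10-HDL library 5. At an unadjusted p under 0.05 there were 2 chaperones higher in MTP10-HDL libraries of MPPs (Hspd1 and Hspe1), where 2.17% of genes were, and 1 lower (Hspa1b), where 4.06% were. These 3 of 10 stand beside 6.23% of genes in either direction. In HSCs there was 1 higher (Hsp90ab1), where 4.36% of genes were, and 1 lower (Dnaja1), where 4.47% were, or 2 of 8 beside 8.83%. All chaperones of a table were read in the same libraries, so none of these counts is one of independent observations.

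The responses were then compared between MPPs and HSCs in 1 fit of all 4 groups, in which the kits and read processing of the tables differ as the cells do and cannot be told apart from them. No chaperone responded differently at an adjusted p under 0.05, where 0.00409% of 24470 genes did. Dnaja1 had the smallest p, with log2 fold changes of 0.31 in MPPs and −0.34 in HSCs and a difference of 0.66 (SE 0.28, edgeR adjusted p = 1). Hsph1 differed by 0.89 (SE 0.39) and Hsp90aa1 by 0.81 (SE 0.39), both with an edgeR adjusted p of 1. These 3 were the chaperones at an unadjusted p under 0.05, a mark that 3.86% of genes passed. Hsp90aa1 missed that mark in most fits with 1 library left out. Its difference was 0.34 without MTP10-HDL library 2 of MPPs and 0.71 without PBS library 1 of HSCs. Hsph1 missed it at 0.62 and 0.66 without MTP10-HDL library 1 or PBS library 3 of MPPs. It also missed at 0.80 without MTP10-HDL library 2 or PBS library 1 of HSCs. Dnaja1 missed the mark, at differences of 0.59 to 0.73, when any of 5 libraries was left out. Hsp90ab1 was above 0 in both tables and differed by 0.19 (SE 0.30).

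Balance between the classes was read within each library. Such sums weigh the most abundant gene most. Levels did not divide by class. In PBS libraries of MPPs the inducible Hsp90aa1 averaged 837 CPM. That was above the constitutive Hspd1 (364 CPM), Dnaja1 (104 CPM) and Hspe1 (59.5 CPM), and below Hspa8 (1330 CPM) and Hsp90ab1 (3176 CPM). In PBS libraries of HSCs Hsph1 (139 CPM) and Hsp90aa1 (115 CPM) averaged above Dnaja1 (109 CPM) and Hspe1 (18.3 CPM). In MPPs Hsp90aa1 averaged 1385 of 1577.5 CPM of the inducible sum in MTP10-HDL and 837 of 1028 CPM in PBS libraries. In HSCs Hsp90ab1 averaged 2267 of 2748 CPM of the constitutive sum in MTP10-HDL and 1817 of 2296 CPM in PBS libraries. In MPPs the summed CPM of the inducible genes was 20.2, 28.6 and 15.5% of the constitutive sum in MTP10-HDL libraries 1, 2 and 3, against 19.3 and 21.4% in PBS libraries 2 and 3. The PBS libraries lay within the MTP10-HDL range. In HSCs it ranged from 8.56 to 12.4% with a median of 10.8% in MTP10-HDL libraries, and from 11.4 to 19.4% with a median of 13.8% in PBS libraries, and 4 of 6 MTP10-HDL libraries lay below every PBS library. The log2 ratio of Hsp90aa1 to Hsp90ab1 ranged from −4.74 to −4.02 in MTP10-HDL and from −4.29 to −3.63 in PBS HSC libraries, so these ranges overlapped.

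**Figure D4:**
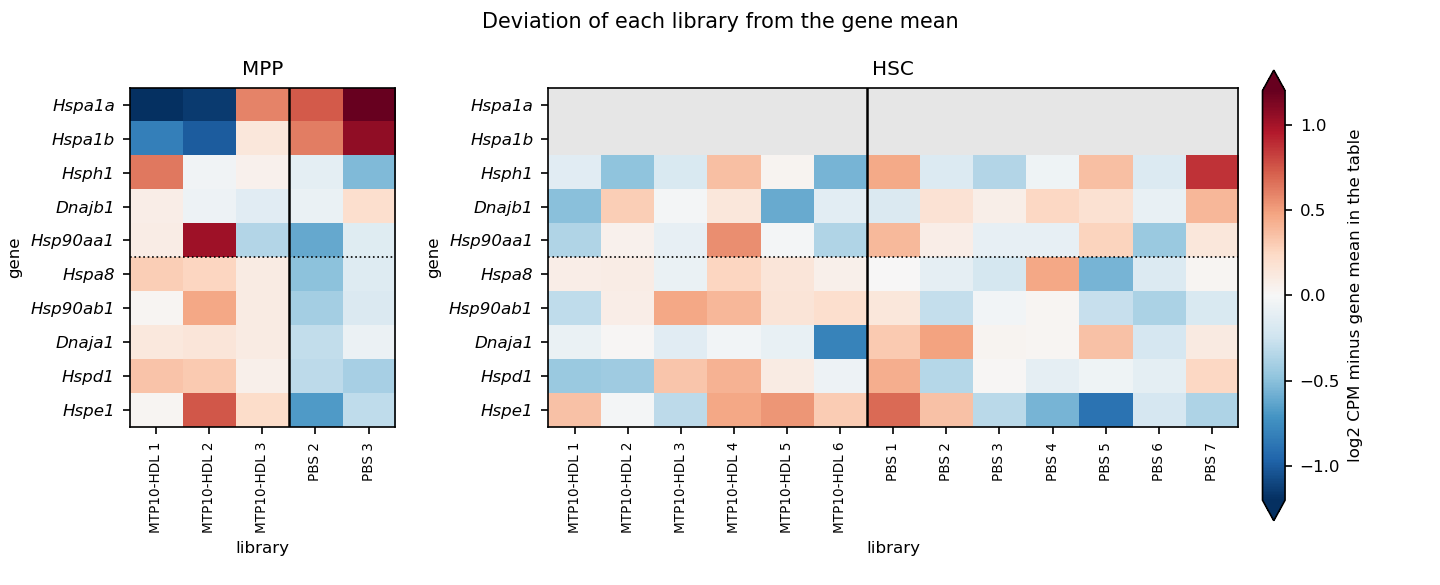
Deviation of log2 CPM from the mean of each gene within its table (colour, red above and blue below) for each chaperone (rows) in each library (columns), with MTP10-HDL left of the black line and PBS right of it. In MPPs the constitutive rows are red or near 0 left of the line and blue right of it, no HSC row divides at the line, and Hspa1a and Hspa1b are grey in HSCs because of counts of 0.

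Across the 13 HSC libraries the chaperones did not vary as one block. Pearson's r of log2 CPM was 0.64 between Hsph1 and Hsp90aa1 and 0.61 between Hsp90ab1 and Hspd1. It was 0.11 between Hspd1 and Hspe1, which share a promoter region, and −0.57 between Dnajb1 and Hspe1. These are descriptions over libraries that also differ in depth and RNA makeup. Among 9689 other genes, the mean log2 CPM of the 5 inducible genes was followed most closely by Rps6kb1 (r = 0.89), Cep76 (r = 0.87), Smtn (r = 0.85), Ccdc59 (r = 0.85) and Nol10 (r = 0.82). That of the constitutive genes was followed most closely by Pno1 (r = 0.89), Ei24 (r = 0.88), Suclg1 (r = 0.88), Rpl23 (r = 0.88) and Rps27l (r = 0.87). The immediate early score had r = −0.05 with the inducible and r = −0.17 with the constitutive mean.

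The partners of these chaperones gave the wider picture, and again no gene passed the edgeR test. In MPPs 18 of 20 Hsp70 and Hsp90 co-chaperones were higher in MTP10-HDL libraries (median log2 fold change 0.35), where 52.0% of all genes were above 0. Of these, 6 of 20 had an unadjusted p under 0.05, where 2.17% of all genes were higher at that mark. Fkbp5, an Hsp90 co-chaperone of steroid receptors that glucocorticoids induce, stood at 248, 343 and 278 CPM in MTP10-HDL libraries 1, 2 and 3, against 124 and 139 CPM in PBS libraries 2 and 3 (log2 fold change 1.14, SE 0.23, edgeR adjusted p = 0.3196). Every MTP10-HDL library held more Fkbp5 than both PBS libraries, and it was called by DESeq2 (adjusted p = 0.000538) and by edgeR without a filter on low counts (adjusted p = 0.00264). Stip1, the adaptor that links Hsp70 to Hsp90, had a log2 fold change of 0.58 (SE 0.19, edgeR adjusted p = 0.6788). In HSCs 11 of 20 co-chaperones were higher, with a median of 0.04. Fkbp5 averaged 104 ± 23.4 CPM in MTP10-HDL and 65.8 ± 21.0 CPM in PBS HSC libraries (SD, n = 6 and 7; log2 fold change 0.66, SE 0.20, edgeR adjusted p = 0.3716), and Hspbp1, a nucleotide exchange factor of Hsp70, had 0.57 (SE 0.25, edgeR adjusted p = 0.5497).

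The cytosolic chaperonin TRiC, which folds actin and tubulin, and prefoldin, which feeds it, had all 14 genes higher in MTP10-HDL libraries of MPPs, with a median of 0.48, where 52.0% of all genes were above 0. Cct6a had a log2 fold change of 0.62 (SE 0.23, edgeR adjusted p = 0.736) and Tcp1 had 0.57 (SE 0.21, edgeR adjusted p = 0.7375). In HSCs 12 of 14 were higher, with a median of 0.21, where 47.7% of all genes were above 0. Cct8 had 0.33 (SE 0.14, edgeR adjusted p = 0.5397) and Cct2 had 0.33 (SE 0.16, edgeR adjusted p = 0.5623). The genes were read in the same libraries and belong to shared complexes, so these are not counts of independent observations.

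Of the mitochondrial chaperones and proteases, 9 of 12 were higher in MPPs (median 0.15) and 10 of 12 in HSCs (median 0.16). Trap1, the mitochondrial Hsp90, had a log2 fold change of 0.43 in MPPs (SE 0.19, edgeR adjusted p = 0.8015) and 0.38 in HSCs (SE 0.20, edgeR adjusted p = 0.5816). Grpel1, the exchange factor of mitochondrial Hsp70, had 0.43 in MPPs (SE 0.26, edgeR adjusted p = 0.8655) and 0.44 in HSCs (SE 0.30, edgeR adjusted p = 0.6656).

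Heat shock factors and their stress-induced partners were divided, with 8 of 15 tested higher in MPPs (median 0.03) and 8 of 13 higher in HSCs (median 0.12). Hspa2, an Hsp70 best known from the male germline, stood at 285, 160 and 432 CPM in MTP10-HDL libraries 1, 2 and 3 of MPPs, against 627 and 1001 CPM in PBS libraries 2 and 3. The groups did not overlap, and the log2 fold change was −1.48 (SE 0.41, edgeR adjusted p = 0.559). It was called by DESeq2 (adjusted p = 0.0343) and by edgeR without the filter (adjusted p = 1.83e-05). In HSCs Hspa2 averaged 4.75 ± 2.10 CPM in MTP10-HDL and 9.36 ± 4.42 CPM in PBS libraries (SD, n = 6 and 7; log2 fold change −0.98, SE 0.38, edgeR adjusted p = 0.497). Ier5, an immediate early regulator of HSF1, had −0.85 in MPPs (SE 0.40, edgeR adjusted p = 0.8111). Serpinh1, the collagen chaperone Hsp47, had −1.14 in HSCs (SE 0.57, edgeR adjusted p = 0.5743).

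**Figure D5:**
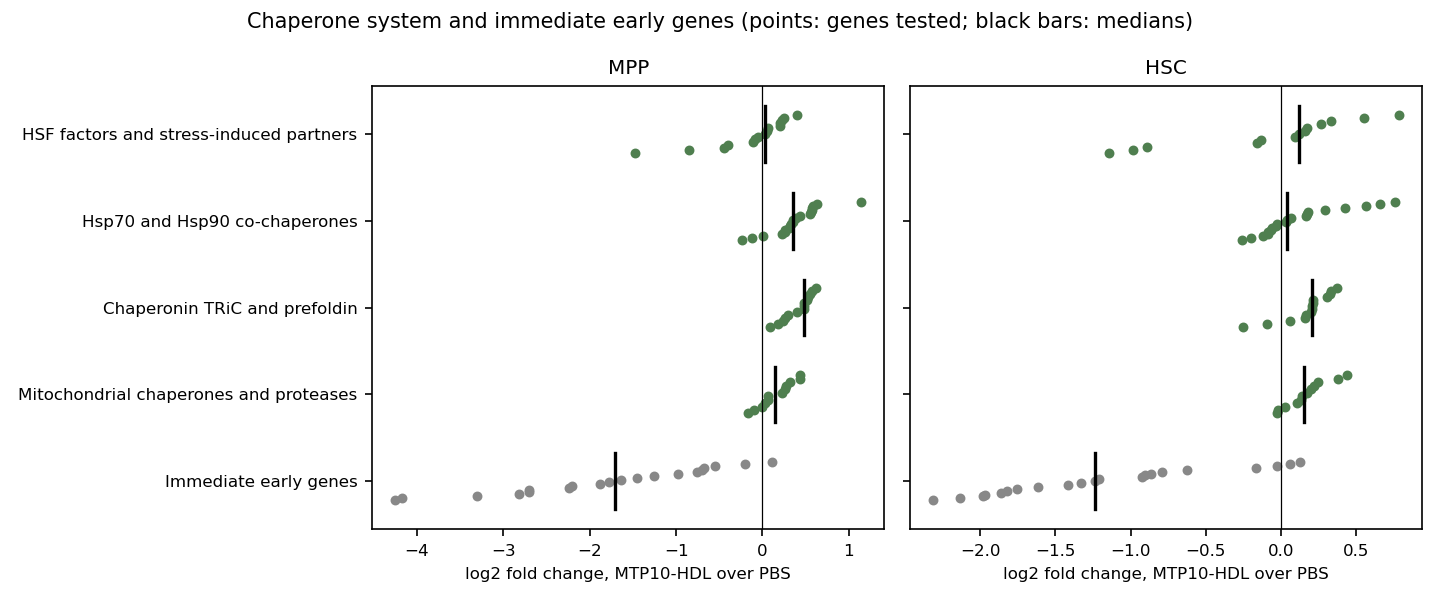
Log2 fold change of MTP10-HDL over PBS (horizontal axis, a scale for each panel) of the tested genes of each list (points), with the list median as a black bar, in MPPs and HSCs. In MPPs all 14 TRiC and prefoldin genes lie above 0 and 19 of 20 immediate early genes lie below it.

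Immediate early genes were below 0 for 19 of 20 in MPPs (median −1.71, 9 at an unadjusted p under 0.05, where 4.06% of all genes were lower at that mark) and 19 of 21 in HSCs (median −1.24, 11 at that mark, where 4.47% of all genes were), and none was called. Of the 3 most abundant in MPPs, Myc had a log2 fold change of 0.11 (SE 0.24), Fos −2.70 (SE 1.25) and Zfp36 −1.45 (SE 0.57). In HSCs Myc had −0.03 (SE 0.16), Zfp36 −1.21 (SE 0.48) and Dusp1 −0.79 (SE 0.54). Their summed level in HSCs ranged from 665 to 1188 CPM in MTP10-HDL and from 512 to 3844 CPM in PBS libraries, where PBS libraries 2, 3 and 4 held 3035, 3098 and 3844 CPM and the other 4 held 512 to 1255 CPM. The part of handling in the chaperone values was not tested.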

How the data were processed

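RNA counts per gene were used as the authors deposited them, in a table for MPPs and a table for HSCs. Per the labels, HSC cDNA was amplified (Ovation V2) and read as single reads, and MPP libraries were poly-A selected and directional. STAR 2.5.2b and CASAVA 1.8.2 for HSCs, and STAR 2.7.2a, DESeq2 1.24 and R 3.6.1 for MPPs, with the build mm10, are named in the submitters' processing notes. The sources used here do not give the counting tool, its annotation or its handling of strand and of reads matching several places. Chromatin accessibility samples of the series are not analysed here.

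Each table was fitted apart with edgeR 4.0.16 (TMM, filterByExpr, quasi-likelihood F test, Benjamini-Hochberg over all genes, threshold 0.05), and all 4 groups together for the difference between responses. CPM values are TMM-scaled, with no pseudocount. Log2 CPM for correlations used a prior count of 2. Alternatives were RLE factors, DESeq2 1.42.0, limma 3.58.1 (voom), other filters, blocks, summed Hspa1a and Hspa1b, removal of abundant RNA classes and leaving out each library. The scripts were tested on simulated data in R 4.3.3. The MPP fit called 9 of 93 genes changed 2-fold and 62 of 95 changed 4-fold, with 13 false calls. The HSC fit called 35 of 96 and 72 of 94, with 5 false calls. Most simulated 2-fold changes were thus missed in both. In MPPs the false calls were a larger share of all calls than the threshold of 0.05 aims at. Genes were simulated independently of each other, without effects shared across a library, so these rates may not hold for the real libraries. Promoters and gene positions came from RefSeq on GRCm38.p6, where 7 of 10 chaperones had a window.

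The chaperones, lists and tests were chosen with earlier results of these data known. Besides all chaperones, the text names of each partner list the 2 genes of smallest p (none passed), the 5 genes most like each class over HSC libraries, the 3 most abundant immediate early genes of a table and the most abundant gene of marker lists it describes. HSC PBS columns name the group, not which sample.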

Additional observations from a re-analysis of the deposited data

Results flagged for a closer look

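Among the chaperones in groups of 4 to 10 libraries, 4 values lay apart from the rest of their group by Dixon's criterion, which chance flags in about 1 in 20 groups. The MPP groups, of 3 and 2 libraries, are too small for it, so the values are from HSCs. Hspa1a was 1.78 CPM in MTP10-HDL library 2, the highest of its 6, and 4.22 CPM in PBS library 1, the highest of its 7, at counts of 11 and 26 reads. Hsp90aa1 was 163 CPM in MTP10-HDL library 4, the highest of its 6. Dnaja1 was 55.2 CPM in MTP10-HDL library 6, the lowest of its 6, and leaving out any 1 HSC library kept its log2 fold change between −0.39 and −0.23.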

How the results depend on the processing

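No chaperone was called in HSCs, and none in the test of the difference between responses, under any alternative run. In MPPs 1 was called without a filter on low counts (Hspa1b, in a fit that called 345 of 26208 genes) and none otherwise. With DESeq2 and without the filter, 2 partner genes were called in MPPs (Fkbp5 and Hspa2). Calls over all genes, 0 in the edgeR fits (1469 in HSCs and 963 in MPPs at an unadjusted p under 0.05), were 85 and 181 with DESeq2 and 44 and 345 without the filter, in HSCs and MPPs in turn, and 0 to 1 and 0 to 17 with 1 library left out (17 without PBS library 3). The replicate block gave 43 genes in MPPs and 0 in HSCs, and no chaperone. Same-numbered HSC libraries correlated at −0.163 to 0.234 and none correlated best with its own number, so the numbers are not read as pairs. In MPPs the correlation was −0.109, and a crossed pairing, chosen after seeing the data, gave 41 genes and no chaperone. The MPP inducible median turned to 0.17 for genes of at least 10 CPM and to 0.23 with Hspa1a and Hspa1b summed and ran from −0.25 to 0.047 with 1 library left out, and the constitutive median was 0.37 to 0.62 with 1 library left out (0.37 without PBS library 2). Near 0, signs turned in HSCs for Hsp90aa1 without the filter (0.0056; −0.20 to 0.015 leaving 1 out) and for Hspd1 without the filter (0.058), with the replicate block (0.015), in the same libraries without the block (0.030), with the technical sets as a block (0.00056) and leaving 1 out (−0.092 to 0.083), and in MPPs for Dnajb1 (−0.25 to 0.047 leaving 1 out). The cause was not tested. The low counts of Hspa1a and Hspa1b limit what HSCs can show, and 2 PBS libraries limit MPPs.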
